A study of Mus musculus with 2 samples.

Results

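Among the barcodes of single-cell RNA libraries from mouse blood, those with fewer than 100 detected genes and at most 20% of their unique molecular identifiers (UMIs) from mitochondrially encoded genes (symbols starting mt-) are described here. They numbered 270 of 1857 barcodes. Replicate 1 held 97 among its 1008 barcodes (9.62%, 95% interval 7.87 to 11.6) and replicate 2 held 173 among its 849 (20.4%, 17.7 to 23.2). The barcodes were selected on the number of detected genes and the mitochondrial share, so both values are descriptions, as are the RNA contents that move with them, and no test was run. Markers given for these barcodes were Hbb-bs, an adult beta globin gene, and Gm42418, a noncoding locus that overlaps ribosomal RNA (rRNA) sequence. Both were found in the barcodes, but mostly not as the leading RNA of the same barcode. The barcodes fell into a kind led by haemoglobin transcripts and a kind led by rRNA-overlapping transcripts, and the second kind came mostly from replicate 2.

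Reticulocytes and red cells of mammals have lost the nucleus, and haemoglobin transcripts make up most of the messenger RNA they still hold. As a reticulocyte matures it clears mitochondria and ribosomes and its RNA is degraded, so that the number of genes found in one cell is low. A barcode with few genes can also hold a cell fragment, a damaged cell or free RNA from the suspension. Reads from rRNA can be assigned to Gm42418, which lies within a copy of rRNA sequence in the mouse genome.

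Burn/tenotomy, in which a burn is paired with the cutting of a tendon, had been applied to the wild type mice that gave the blood. The whole blood was sorted on a microfluidic iChip, which is used to enrich rare cells, and the recovered material, labelled as cMPCs and blood cells, was barcoded on the 10x Chromium platform. The 2 libraries, replicate 1 and replicate 2, form 1 group. The sources used here do not give strain, age or time after injury, and no uninjured blood was analysed here. Whether different mice were used for the replicates is not stated either, so their spread may be technical.

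Library totals were 3967318 UMIs in replicate 1 and 3329292 in replicate 2, and the sparse barcodes held 414176 (10.4%) and 484867 (14.6%) of them. The lowest UMI number of any barcode was 500 and 501. The libraries shared 0 barcode sequences. Intervals below are exact binomial (Clopper-Pearson) or exact Poisson 95% intervals and cover counting error only.

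Haemoglobin filled most of the RNA and rRNA-overlapping transcripts came next. Summed over the barcodes, haemoglobin genes took 86.8% of UMIs in replicate 1 and 79.2% in replicate 2, a mean of 83.0% ± 5.35 (SD, n = 2). The rRNA-overlapping loci Gm42418, AY036118 and Gm26917 took 8.17% and 13.8% (11.0% ± 3.95), almost all of it Gm42418 with 7.80% and 13.2%, and Gm26917 had 0 UMIs. All other nuclear genes together took 4.79% and 6.34% (5.56% ± 1.10), and the mitochondrial genes 0.252% and 0.672%.

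Gm42418 (ENSMUSG00000098178) is annotated in mm10 as a long noncoding RNA on chromosome 17, 39846958 to 39848788, plus strand, with 1 exon. AY036118 (ENSMUSG00000105361) lies inside it on the minus strand, 39847113 to 39848035. All 893 of the 31-base words of the AY036118 transcript occurred in Gm42418 on the opposite strand, so reads of the pair can be told apart by strand alone, and the sources used here do not say whether counting used strand. The stretch below lies inside both loci and is shown as a sample of the locus to which most non-haemoglobin RNA of these barcodes was assigned. The counts do not say where in the locus the UMIs fell. It is exonic, comes from the GENCODE M21 transcript of Gm42418 (mm10, chr17:39847122-39847217, plus strand, 5′ to 3′), and the capitals mark the longest run of A in that transcript, 6 bases.
Gm42418: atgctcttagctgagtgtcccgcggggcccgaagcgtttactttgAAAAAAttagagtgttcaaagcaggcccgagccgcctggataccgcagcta

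Each barcode was assigned to the class of RNA that held most of its UMIs. In replicate 1, 93 of 97 barcodes were led by haemoglobin (95.9%, 89.8 to 98.9) and 4 by rRNA-overlapping transcripts (4.12%, 1.13 to 10.2). In replicate 2, 81 of 173 were led by haemoglobin (46.8%, 39.2 to 54.5) and 92 by rRNA-overlapping transcripts (53.2%, 45.5 to 60.8). The intervals of the libraries did not overlap, but they cover counting error only, and barcodes of 1 library are not replicates. The mean share led by rRNA-overlapping transcripts was 28.7% ± 34.7 (SD, n = 2), a spread larger than the mean. No barcode was led by other nuclear genes or by mitochondrial genes, which allows up to 3.09% in replicate 1 and 1.73% in replicate 2 when a count of 0 is given a limit of 3 barcodes.

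Few sparse barcodes lay midway between the kinds, though the edges of the kinds were close in replicate 2. In replicate 2 the haemoglobin share ran from 44.0% to 98.8% in haemoglobin-led barcodes and from 4.77% to 37.8% in rRNA-led ones, and only 5 of 173 barcodes had a share between 40% and 70%. In replicate 1 the haemoglobin-led barcodes ran from 50.3% to 96.6%, and the 4 rRNA-led ones from 5.46% to 38.7%. The haemoglobin and rRNA shares lay within 10 percentage points of each other in 0 barcodes of replicate 1 and 4 of replicate 2. Because the class is set by the shares themselves, the groups cannot overlap in which share is higher. The thin middle holds only among barcodes under the limit of 100 genes. Barcodes with at least 100 genes lay in that range too. In replicate 2, 185 of them had 40% to 90% haemoglobin, with a lowest share of 40.1% and a lower quartile of 65.2%. Whether the gene limit shaped the thin middle was not tested.

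**Figure D1:**
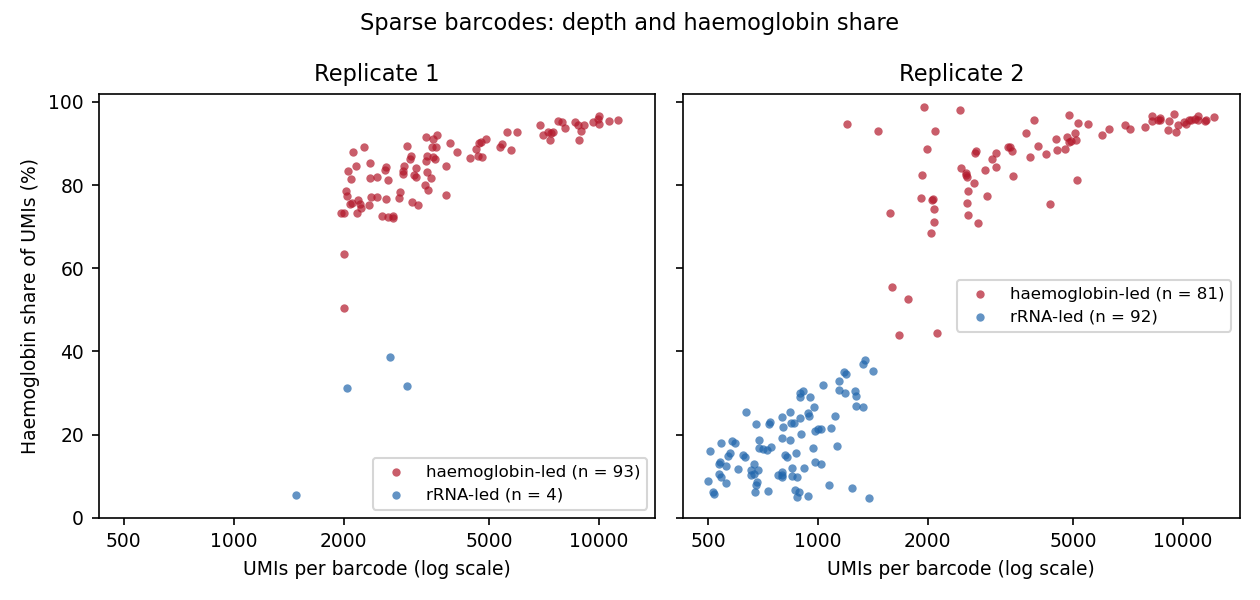
Each point is a sparse barcode, with its UMIs on a logarithmic x axis and the haemoglobin share of its UMIs (%) on the y axis, coloured by the class that leads it, with 1 panel per library. Replicate 1 has 4 rRNA-led points, and the 92 of replicate 2 lie between 501 and 1417 UMIs, below a haemoglobin share of 37.8%.

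The kinds also differed in depth, with some overlap. Haemoglobin-led barcodes had a median of 3359 UMIs in replicate 1 (1972 to 11285) and 3895 in replicate 2 (1201 to 12179), whereas the 92 rRNA-led barcodes of replicate 2 had a median of 838.5 (501 to 1417). The 4 rRNA-led barcodes of replicate 1 had 1483, 2042, 2672 and 2987 UMIs, all above the highest of replicate 2. Between 500 and 1000 UMIs, 71 of the 83 barcodes of replicate 2 with at most 20% mitochondrial UMIs were sparse, all 71 led by rRNA-overlapping transcripts, against 0 of 19 in replicate 1. From 1000 to 1500 UMIs the counts were 23 of 36, 21 of them rRNA-led, against 1 of 14.

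Shallow barcodes of any content were not missing from replicate 1, but those with at most 20% mitochondrial UMIs were fewer there. Under 1483 UMIs, the lowest number of a sparse low-mitochondrial barcode there, it held 427 barcodes and replicate 2 held 406. Of these, 339 and 252 were sparse barcodes with over 20% mitochondrial UMIs, and 31 and 25 had at least 100 genes and a low mitochondrial share. The barcodes described here were 0 and 94 of them, the 0 being set by the choice of that UMI number. From 1483 UMIs up, replicate 1 had 97 of the sparse barcodes and replicate 2 had 79, with 4 and 0 of them rRNA-led. The sources used here do not say how barcodes with cells were separated from empty ones, and the part of that step in this difference was not tested.

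Haemoglobin-led barcodes thinned out sharply under 2000 UMIs in replicate 1, where 1 of 93 lay below that number and 8 lay within 100 UMIs above it. In replicate 2, 10 of 81 lay under 2000. Replicate 2 also had 6 haemoglobin-led barcodes with fewer than 50 genes, with 15 to 43 genes, 1201 to 3895 UMIs, haemoglobin shares of 92.9% to 98.8% and 12 to 49 UMIs of other nuclear genes. The sparsest, with 15 genes, had 1955 UMIs. Replicate 1 had 0 such barcodes, and its lowest gene number was 50.

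Number of genes per barcode had a median of 85 (50 to 99) in replicate 1 and 79 (15 to 99) in replicate 2. With each barcode thinned to 500 UMIs, the median number of genes was 27 and 25 in haemoglobin-led barcodes and 30 and 45 in rRNA-led ones. Barcodes with at least 100 genes and a haemoglobin share of at least 90% gave 22 and 22 at that depth, and those with 40% to 90% haemoglobin gave 38 and 42. At equal depth the rRNA-led barcodes thus had more genes than the haemoglobin-led ones in both libraries, the reverse of the unthinned medians of 78.5 and 59.5 against 85 and 88. When only UMIs outside haemoglobin, rRNA-overlapping and mitochondrial genes were counted and thinned to 100, the order was different: 49 and 49 genes in haemoglobin-led barcodes, 39 and 38 in rRNA-led barcodes, and 58 and 58 in barcodes with at least 90% haemoglobin. That step left out 1 and 7 haemoglobin-led and 0 and 11 rRNA-led barcodes that were shallower.

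Barcodes just inside and just outside the limit of 100 genes were both mostly haemoglobin, with a somewhat lower share outside, more so in replicate 2. Those with 95 to 99 genes, 16 and 29 in number, had a median haemoglobin share of 84.3% in replicate 1 and 86.7% in replicate 2, and those with the next 5 gene numbers from 100 up, 24 and 23, had 82.5% and 79.0%. Of the former 0 and 6 were rRNA-led, and of the latter 2 and 4. The median rRNA-overlapping share was 7.87% and 7.72% inside against 9.77% and 10.9% outside. Median depth was 4417 and 3807 UMIs inside against 3726 and 2510 outside. The mitochondrial limit fell in an empty range: the highest share inside was 3.11% and 10.6%, and the lowest among barcodes of fewer than 100 genes outside it was 30.9% and 72.2%.

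The adult globin genes had near-equal proportions in the haemoglobin-led barcodes of both libraries. Hbb-bs (chromosome 7, 103826534 to 103828096, minus strand), a beta globin gene, took 35.0% and 34.9% of their UMIs. Hba-a1 and Hba-a2, the adult alpha globins (chromosome 11, 32283511 to 32284465 and 32296489 to 32297298, plus strand), took 25.6% and 26.8%, and 19.7% and 21.5%. Hbb-bt, the other adult beta globin (chromosome 7, 103812524 to 103813996, minus strand), took 7.72% and 7.64%. All 4 genes are protein-coding in the mm10 annotation.

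Other RNA of a barcode does not enter the calculation of a ratio between globin genes. In haemoglobin-led barcodes the Hbb-bs to Hbb-bt ratio was 4.54 and 4.57 (4.55 ± 0.0190, SD, n = 2), against 3.65 and 3.48 (3.57 ± 0.120) in barcodes with at least 100 genes and at least 90% haemoglobin. The alpha to beta ratio was 1.06 and 1.13 against 0.904 and 0.968. Barcodes with at least 100 genes and 40% to 90% haemoglobin had 3.72 and 3.68, and 1.12 and 1.27. The Hbb-bs to Hbb-bt ratio was thus higher in the haemoglobin-led sparse barcodes than in both of these classes in each library, and the alpha to beta ratio was not. In haemoglobin-poor barcodes the Hbb-bs to Hbb-bt ratio was higher still. With at least 100 genes and under 40% haemoglobin it was 5.25 and 5.17. With over 20% mitochondrial UMIs it was 8.84 and 6.30 under 100 genes, and 6.44 and 6.44 from 100 genes up. As every gene of the sparse barcodes bore on the rule, no test was made. Hba-a1 and Hba-a2 share 588 of the 780 31-base words of Hba-a1 (75.4%), and Hbb-bs shares 400 of 735 (54.4%) with Hbb-bt, so the split of reads within a pair is uncertain. The alpha to beta ratio does not depend on that split.

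In rRNA-led barcodes of replicate 2 haemoglobin took 19.3% of UMIs, with an alpha to beta ratio of 1.41 and an Hbb-bs to Hbb-bt ratio of 4.54. The 4 such barcodes of replicate 1 had an alpha to beta ratio of 8.38. This value rests on 3 of them, in which alpha globin was 87.9%, 92.7% and 94.5% of adult globin UMIs, while it was 27.2% in the fourth. Barcodes with at least 80% alpha globin numbered 4 of 97 and 5 of 173 among the sparse barcodes, 14 of 238 and 16 of 185 among those with at least 100 genes and 40% to 90% haemoglobin, and 0 of 145 and 0 of 121 among those with at least 90%. Of the embryonic and minor globins, Hbq1a had 6 and 11 UMIs and Hbq1b 6 and 8, and Hba-x, Hbb-bh1, Hbb-bh2 and Hbb-y had 0.

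**Figure D2:**
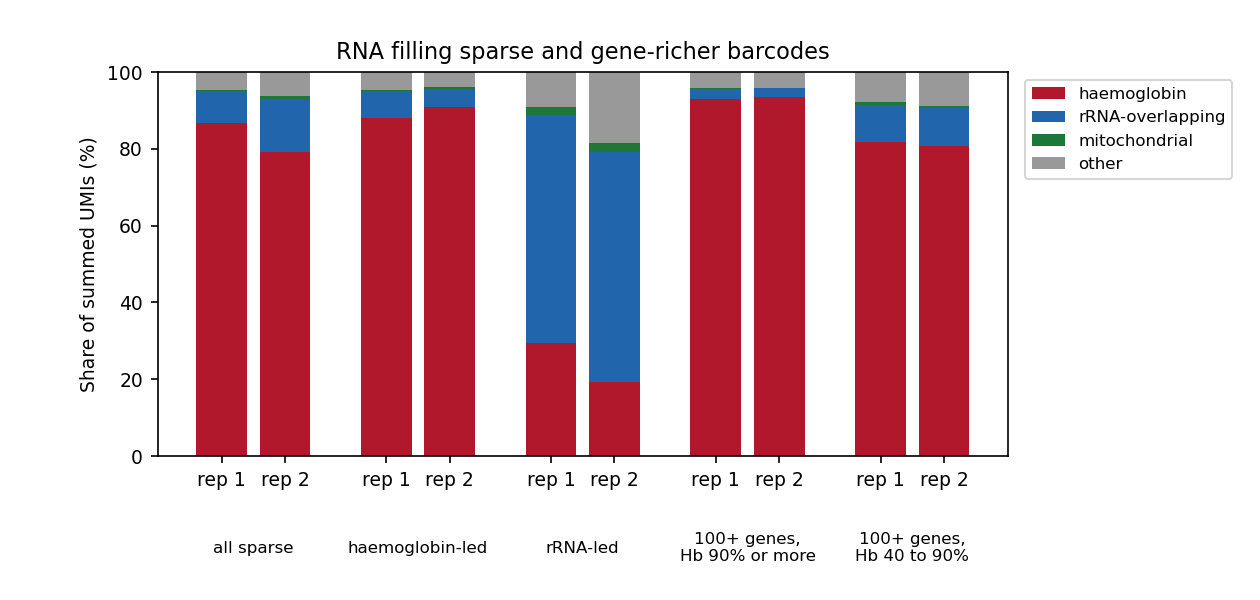
Stacked bars give the share of summed UMIs (%) taken by haemoglobin, rRNA-overlapping, mitochondrial and other transcripts. They are shown for all sparse barcodes, for these by leading class and for barcodes with more genes, with 1 bar per library. The rRNA-led bars hold 59.3% and 60.0% rRNA-overlapping UMIs, and the haemoglobin-led bars 88.1% and 90.8% haemoglobin.

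The amount of Gm42418 RNA per barcode differed less than its share. In the haemoglobin-led barcodes the median number of rRNA-overlapping UMIs was 288 (quartiles 228 to 361) in replicate 1 and 212 (173 to 283) in replicate 2, and in barcodes with at least 100 genes and at least 90% haemoglobin it was 306 and 270. In the rRNA-led barcodes it was 1276.5 in replicate 1, with 4 barcodes, and 500.5 (415 to 572.5) in replicate 2. Over all these classes haemoglobin UMIs had the wider range. Their median was 2813 and 3427 in the haemoglobin-led and 793 and 121.5 in the rRNA-led barcodes. It was 10259 and 11318 in the barcodes with at least 90% haemoglobin. Between the kinds in replicate 1, however, the rRNA-overlapping median differed by the larger factor. The Gm42418 share of the summed UMIs was 58.2% and 57.7% in the rRNA-led barcodes, 6.66% and 4.58% in the haemoglobin-led ones, and 2.51% and 2.10% in those with at least 90% haemoglobin.

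Haemoglobin UMIs of the rRNA-led barcodes can be set beside those of barcodes of other content. Barcodes with at least 100 genes and under 40% haemoglobin, at median depths of 2029 and 1619.5 UMIs, had a median of 2 and 4 haemoglobin UMIs, with upper quartiles of 5 and 351.5 and highest values of 1150 and 734. That class was defined by low haemoglobin, and its upper quartile in replicate 2 lay above the median of the rRNA-led barcodes there. The sparse barcodes with over 20% mitochondrial UMIs, at 756 and 766, had medians of 4 and 3 and upper quartiles of 6 and 6. The rRNA-led barcodes of replicate 2, at 838.5 UMIs, had 121.5, with a lowest value of 30. Alas2, the erythroid enzyme that starts haem synthesis (chromosome X), had a UMI in 72.8% of them and in 3 of 4 in replicate 1, against 1.95% and 1.11% of the sparse barcodes with over 20% mitochondrial UMIs and 5.68% and 35.7% of the barcodes with under 40% haemoglobin. In haemoglobin-led barcodes it was 100% and 96.3%.

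Outside haemoglobin and mitochondrial genes, Gm42418 was the largest transcript, with 96140 UMIs (63.6%) over both libraries. The next were Cmss1 with 8092 (5.35%), AY036118 with 4424, Camk1d with 3311 and Alas2 with 2662. Among the others, Cdk8, Lars2 and Gphn had 1686, 1650 and 1393. Cmss1 encodes a protein tied to the small ribosomal subunit, Camk1d a calcium/calmodulin-dependent kinase, Cdk8 a kinase of the Mediator complex, Lars2 the mitochondrial leucyl-tRNA synthetase and Gphn the scaffold gephyrin. None of these 5 is known as a red cell marker. Most other large transcripts were red cell genes, among them Ftl1, the ferritin light chain, with 1184, Tent5c with 1063, Mkrn1 with 1053, Bpgm, which makes 2,3-bisphosphoglycerate, with 1040, and Epb41, the skeletal protein 4.1, with 754.

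Cmss1, Camk1d, Cdk8, Lars2 and Gphn followed Gm42418 across barcodes. Across the 97 barcodes of replicate 1, Spearman's rho of the gene's share of UMIs with that of Gm42418 was 0.88 for Cmss1, 0.88 for Camk1d, 0.78 for Lars2, 0.75 for Gphn and 0.70 for Cdk8. Across the 173 of replicate 2 it was 0.91, 0.65, 0.85, 0.84 and 0.85 in the same order. Hbb-bs had -0.78 and -0.93, and Rpl41, a ribosomal protein gene, -0.17 and -0.67. The points are barcodes of 1 library, and all shares have the same denominator, in which haemoglobin is the largest part, so a lower haemoglobin share goes with higher shares of the rest.

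Counted per 1000 Gm42418 UMIs, which takes haemoglobin out of the denominator, Cmss1 stood at 76.6 in replicate 1 and 91.7 in replicate 2 (87.4 to 96.2) in haemoglobin-led barcodes, and at 47.5 (41.9 to 53.8) and 89.9 (87.1 to 92.7) in rRNA-led ones. Lars2 was at 14.9 and 18.1 against 10.1 and 19.0, and Gphn at 13.1 and 15.9 against 9.36 and 15.3. In replicate 2 these 3 genes thus had nearly 1 ratio to Gm42418 in both kinds of barcode, which Cdk8 and Camk1d did not. Cdk8 was at 23.8 in haemoglobin-led and 18.4 in rRNA-led barcodes of replicate 2, and at 14.2 and 5.24 in replicate 1. Camk1d was at 58.0 in haemoglobin-led and 22.1 in rRNA-led barcodes of replicate 2, and at 42.2 and 17 in replicate 1. AY036118 was at 52.7 and 58.4 in haemoglobin-led and 20.03 and 40.01 in rRNA-led barcodes. Alas2, for comparison, was at 52.2 and 56.7 in haemoglobin-led and 2.62 and 4.09 in rRNA-led barcodes, a larger ratio than any of these.

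The spliced transcripts of Cmss1, Camk1d, Cdk8, Lars2 and Gphn shared 0 words of 31 bases with Gm42418 on either strand. Their introns were not compared.

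**Figure D3:**
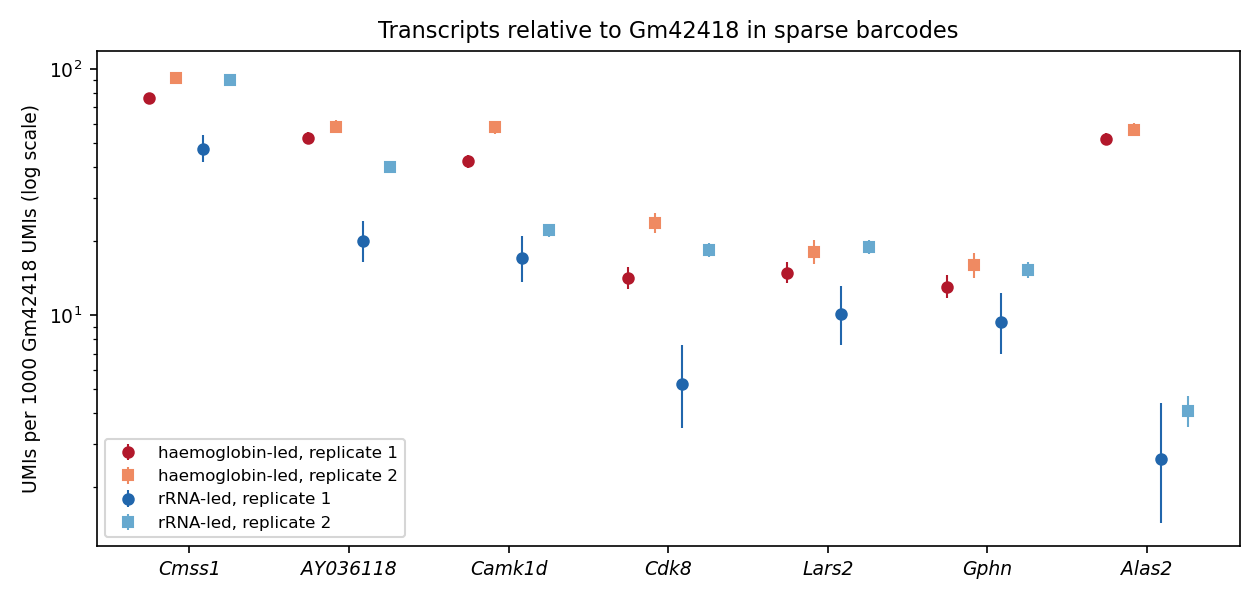
Points give UMIs per 1000 Gm42418 UMIs on a logarithmic y axis for single transcripts (x axis), in haemoglobin-led and rRNA-led sparse barcodes of each library, with exact Poisson 95% intervals as bars. In replicate 2 Cmss1 (91.7 and 89.9), Lars2 (18.1 and 19.0) and Gphn (15.9 and 15.3) lie close together in both kinds, and Alas2 (56.7 and 4.09) far apart.

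Red cell genes other than globins were present in both kinds of barcode, at unequal levels. Levels per barcode are mean UMIs summed over a gene list, for replicate 1 and replicate 2. They are not corrected for depth, which was lower in the rRNA-led barcodes. Haem synthesis and iron genes were at 32.7 and 28.6 in haemoglobin-led barcodes, 10.8 and 6.07 in rRNA-led barcodes, and 58.6 and 57.6 in barcodes with at least 100 genes and at least 90% haemoglobin. Genes of mitophagy, autophagy and ubiquitin, which clear organelles and proteins from the maturing red cell, were at 19.8 and 20.2, 7.5 and 5.30, and 62.0 and 65.4. Bnip3l, a receptor that marks mitochondria for removal, had 359 and 282 UMIs in haemoglobin-led and 4 and 89 in rRNA-led barcodes. As a share of all UMIs the order differed between libraries. Haem synthesis and iron genes took 0.751% in haemoglobin-led and 0.468% in rRNA-led barcodes of replicate 1, and 0.571% and 0.712% in replicate 2. Mitophagy, autophagy and ubiquitin genes took 0.455% and 0.327%, and 0.403% and 0.622%. Per UMI outside haemoglobin, rRNA-overlapping and mitochondrial genes, both lists were higher in haemoglobin-led barcodes of each library.

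Glycolysis genes with Bpgm were at 5.65 and 5.20 UMIs per haemoglobin-led and 0.75 and 1.03 per rRNA-led barcode, and erythroid regulators and other red cell transcripts at 12 and 10.8, and 6.75 and 5.29. Of all UMIs, the glycolysis list took 0.130% and 0.104% in haemoglobin-led and 0.0327% and 0.121% in rRNA-led barcodes. The list of erythroid regulators and other red cell transcripts took 0.276% and 0.215%, and 0.294% and 0.621%. The 17 proteasome genes gave 3 and 6 UMIs in all sparse barcodes.

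Cytosolic ribosomal protein genes differed widely between the kinds. They were at 13.2 and 12.8 UMIs per haemoglobin-led barcode and 1.5 and 1.32 per rRNA-led barcode. Rpl41 had a UMI in 87.1% and 90.1% of the former, and in 0 of 4 and 8 of 92 (8.70%) of the latter. The rRNA-led barcodes were thus the poorest in ribosomal protein transcripts while Gm42418 filled most of them.

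Red cell membrane and skeleton genes differed less, with 4.23 and 3.07 UMIs per haemoglobin-led barcode and 3.75 and 3.75 per rRNA-led barcode, so that the order of the kinds was opposite in the libraries. Epb41 held most of these UMIs, with 324 and 194 in haemoglobin-led and 8 and 228 in rRNA-led barcodes. It had a UMI in 92.5% and 79.0% of the former and in 4 of 4 and 84.8% of the latter. Slc4a1, which encodes the anion exchanger band 3, had 16 UMIs in 13 of 93 haemoglobin-led barcodes of replicate 1 and 15 UMIs in 11 of 81 in replicate 2. In the rRNA-led barcodes it had 7 UMIs in 2 of 4, and 61 UMIs in 39 of 92, although these were shallower in replicate 2. Per 1000000 UMIs outside haemoglobin, rRNA-overlapping and mitochondrial genes this was 843 and 919 against 8383 and 4231.

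Interferon response genes were few. The list was at 2.05 and 2.09 UMIs per haemoglobin-led barcode and at 0 and 0.989 per rRNA-led barcode. Rsad2, an antiviral enzyme induced by interferon, had 55 and 45 UMIs in haemoglobin-led barcodes and 0 and 54 in rRNA-led ones. Isg20, an interferon-induced exonuclease, had 113 and 90 against 0 and 21.

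Markers of nucleated and other blood cells were at or near 0. Malat1 and the other 5 nuclear noncoding RNAs of the list had 0 UMIs in all 270 barcodes, while Malat1 had 9463 and 3808 UMIs in the barcodes with at least 100 genes and under 40% haemoglobin, in 89.8% and 54.8% of them. The 20 leukocyte markers gave 1 and 2 UMIs, with Ptprc at 0, and the 11 platelet markers 2 and 4. The 9 mesenchymal and 6 endothelial markers gave 0 and 1 UMI each, and the 6 epithelial markers 0. Both kinds of sparse barcode therefore carried red cell transcripts and almost no marker of another cell type, and of the markers given for them Hbb-bs was the largest transcript of the haemoglobin-led kind and Gm42418 of the rRNA-led kind. Fewer transcripts per cell, fragments of a cell, damaged cells and free RNA from the suspension cannot be told apart in these counts.

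**Figure D4:**
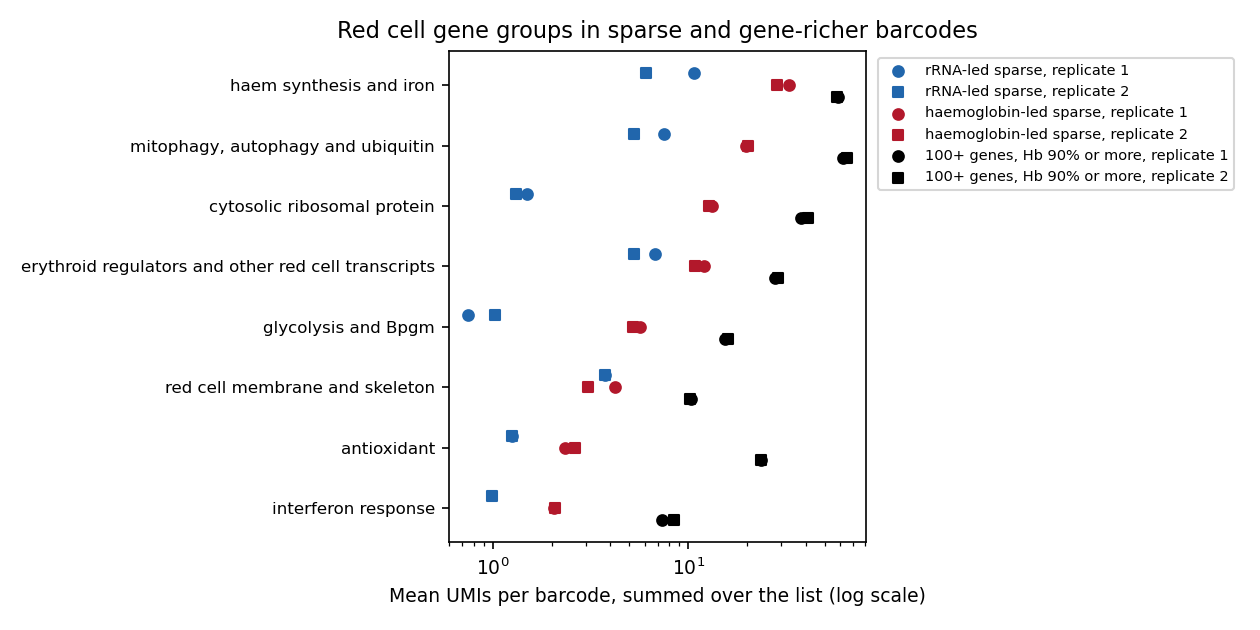
Points give the mean number of UMIs per barcode summed over each gene list (logarithmic x axis) in haemoglobin-led and rRNA-led sparse barcodes and in barcodes with at least 100 genes, by library. Ribosomal protein genes lie at 13.2 and 12.8 in haemoglobin-led and 1.5 and 1.32 in rRNA-led barcodes, whereas membrane and skeleton genes lie at 4.23 and 3.07 and at 3.75 and 3.75.

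Between the libraries, the summed profiles of the sparse barcodes differed in some ribosomal protein genes and in a larger number of other transcripts. The mixture of kinds differed with them. Levels were taken per 1000000 UMIs outside haemoglobin and mitochondrial genes, for genes with at least 20 UMIs. Of 187 genes, 28 (15%) were at least 2-fold higher in replicate 1 and 13 (6.95%) at least 2-fold higher in replicate 2, with a median log2 ratio of 0.41 over all genes. Divided by the median ratio, the split was 6 and 25, and with rRNA-overlapping loci out of the base 15 and 19, so that the larger side changed. Among the haemoglobin-led barcodes alone it was 2 (1.26%) and 9 (5.66%) of 159 genes, with a median of -0.17.

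The genes higher in replicate 1 were led by Rpl10, Bag1, Ell2, Rplp1, Rps29, Rpl7, Ypel5, Rplp2, Rpl23 and Rps24. Of the ribosomal protein list 10 of 24 genes were past 2-fold that way and 0 the other way, with a median log2 ratio of 0.94. Among haemoglobin-led barcodes 0 of 23 were, and 1 was past 2-fold towards replicate 2. Rplp1, an acidic protein of the ribosomal stalk, had 82 and 52 UMIs, and its log2 ratio was 0.30 among haemoglobin-led barcodes. Most of the 28 genes higher in replicate 1 were not on the ribosomal protein list. Among them were Alas2, with 1422 and 1240 UMIs, and Ftl1, with 641 and 543. Their log2 ratios were 1.06 and 1.10, and 0.02 and 0.03 among haemoglobin-led barcodes.

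Among the genes higher in replicate 2 were 1700054A03Rik, Gm19951, Lrp1b, Peak1, Apol11b, Atp5l, Gm10371, Serinc3 and Il31ra. Il31ra, which encodes a receptor of interleukin 31, had 86 and 331 UMIs, with a log2 ratio of -0.96 among haemoglobin-led barcodes. Atp5l, a subunit of mitochondrial ATP synthase, had 4 and 19. With 1 library on each side, these ratios have no replicate check.

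Set against the barcodes with at least 100 genes and at least 90% haemoglobin (145 and 121), many genes of the sparse barcodes were lower relative to UMIs outside haemoglobin and mitochondrial genes. Of 357 genes, 216 (60.5%) were at least 2-fold lower in both libraries and 1 (0.28%) at least 2-fold higher. A gene entered this count with at least 20 UMIs in the sparse barcodes or as many expected from the other class. Of the 357 genes, 170 entered only through the other class, where they are high, so that they had to be lower, and 137 of them were at least 2-fold lower. The 187 genes with at least 20 UMIs in the sparse barcodes gave 79 lower (42.2%) and 1 higher (0.535%), with medians of -0.92 in replicate 1 and -1.61 in replicate 2. In haemoglobin-led barcodes the same minimum gave 40 lower (25.2%) and 0 higher (0%) of 159, with medians of -0.80 and -0.65.

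The median log2 ratio of the 357 genes was -1.48 in replicate 1 and -1.98 in replicate 2. The rRNA-overlapping loci took 63.1% and 68.5% of that base in the sparse barcodes and 38.7% and 35.2% in the others. Divided by the median ratio, 21 genes were lower and 43 higher. Without replicate 2 the count lower was 114, and without replicate 1 it was 231. A sparse barcode was chosen for having few genes, so that this direction is in part set by the rule.

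Lists are described over genes with at least 20 UMIs in the sparse barcodes, beside the 42.2% and the medians above. Of 4 antioxidant genes, 3 were lower, with a list median of -3.30, and -2.75 in haemoglobin-led barcodes, where 3 of 4 were lower. Prdx2, the main peroxiredoxin of red cells, had 29 and 52 UMIs in the sparse barcodes against 617 and 560, with log2 ratios of -3.31 and -3.46, and -3.13 and -3.08 in haemoglobin-led ones. Blvrb, a biliverdin reductase, had 13 and 15 against 237 and 187 (-3.08 and -3.68). Per barcode the antioxidant list was at 2.33 and 2.63 UMIs in haemoglobin-led barcodes against 23.5 and 23.7.

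Of ribosomal protein genes 13 of 24 were lower (median -1.63), and 2 of 23 in haemoglobin-led barcodes (-0.92). The haem synthesis and iron list had 2 of 8 lower, with a median of -0.66, and of -0.03 in haemoglobin-led barcodes, near the level of the base. Of mitophagy, autophagy and ubiquitin genes 8 of 13 were lower, of interferon response genes 3 of 3, of membrane and skeleton genes 2 of 5, and of erythroid regulators and other red cell transcripts 2 of 7. The only gene higher in both libraries was Sec61a1, a subunit of the endoplasmic reticulum translocon, with 5 and 17 UMIs against 3 and 7.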

How the data were processed

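The authors deposited UMI counts per gene and barcode for each library, not normalized; per the file headers and the submitters' processing notes Cell Ranger 7.1.0 was used, and the notes also name Seurat 5 and mm10. The calling of barcodes, the use of introns or strand in counting and any removal of doublets were not given in the sources used here, and no doublet caller was run. Barcodes and gene lists were chosen with earlier results of these data known.

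Of 32285 gene IDs, 32158 (99.6%) matched GENCODE M21 (mm10), which gave coordinates and transcript sequences. There were 18 lists, 1 of them the ribosomal protein genes by symbol. Barcodes were thinned with a fixed seed to 500 UMIs. Folds of at least 2 were counted for genes with at least 20 UMIs, per 1000000 UMIs outside haemoglobin and mitochondrial genes, with a count of 0 set to 3 UMIs. Genes named are haemoglobin genes and Gm42418, the 20 with most UMIs, at most 10 per direction by fold, list genes with at least 20 UMIs and defining markers. Hbq1a and Hbq1b are named as list members. Some genes that the rule would name are not reported here. Alternatives were other gene limits, UMI minimums, count bases and comparison classes, leaving out each library and, chosen after seeing the data, haemoglobin-led barcodes alone, a base without rRNA-overlapping loci, a UMI minimum per barcode and one per gene in the sparse barcodes. The fold counting was tested on simulated data. Python 3.11.15, numpy 2.4.6, scipy 1.17.1, pandas 2.3.3 and matplotlib 3.10.9 were used. Depth ran from 500 UMIs per barcode.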

Additional observations from a re-analysis of the deposited data

How the results depend on the processing

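Of the values under other settings, 75 lay within 1.5 times a reported count or 1 SD between libraries of a reported share. The other 45 did not, and the cause was not tested. With 2 libraries, a mean share with 1 left out always lies within 1 SD. Those settings were thus bound to count among the 75 and say nothing on stability. For the rRNA-led share that SD was wide (28.7% ± 34.7), and its mean was 44.9% with fewer than 80 genes, 9.13% after thinning and 2.06% with at least 1483 UMIs. With fewer than 80 genes, replicate 1 held 29 and replicate 2 held 88 sparse barcodes, with fewer than 120 genes 202 and 260, and with a limit of 50 genes after thinning to 500 UMIs 434 and 402. The rRNA-led share was then 6.90% and 83.0%, 3.47% and 39.2%, and 1.84% and 16.4%. A minimum of 1483 UMIs left 79 barcodes in replicate 2, 0 of them rRNA-led, so the rRNA-led kind of that library lies wholly below it. The mean haemoglobin share was 68.9% with fewer than 80 genes, 88.7% after thinning and 88.8% with that minimum. The rRNA-overlapping share was 22.5%, 5.62% and 6.51%, and that of other nuclear genes 7.79% with fewer than 80 genes and 4.41% with the minimum.

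Genes at least 2-fold higher in replicate 1 and in replicate 2 numbered 50 and 27 with at least 10 UMIs, 15 and 7 with at least 50, and 80 and 62 with at least 1. Counted per all UMIs they were 2 and 44, and scaled by the median ratio 6 and 25. They were 47 and 9 with fewer than 80 genes, 2 and 9 in haemoglobin-led barcodes and 15 and 19 with rRNA-overlapping loci out of the base.

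Against barcodes with at least 90% haemoglobin, genes higher and lower numbered 0 and 124 with at least 50 UMIs, 24 and 34 per all UMIs, 43 and 21 scaled by the median ratio, 0 and 133 with fewer than 80 genes, 0 and 114 in haemoglobin-led barcodes and 14 and 70 with rRNA-overlapping loci out of the base. Barcodes with 40% to 90% haemoglobin as comparison gave 125 lower, and at least 20 UMIs in the sparse barcodes 79. Leaving out 1 library gave 0 to 6 higher and 114 to 231 lower, with the low values without replicate 2. The 114 comes from a smaller set of genes than the 357, so these counts are not comparable in size. No paired analysis was possible because both libraries belong to 1 group. Genes with few UMIs per barcode were not detectable at this depth, and 2 libraries give no measure of how blood samples vary.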
